A study of Rattus norvegicus with 4 samples.

Results

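The mammary gland of heterozygous Hirosaki hairless rats (HHR) on day 1 of lactation was compared with the gland of Sprague-Dawley rats (SDR) on day 1 of involution. The comparison rests on 2 of the 4 arrays of the series, chosen by their labels, with 1 array a group. The other 2 arrays held homozygous HHR and SDR, both on day 1 of lactation, and their signals are given beside those of the pair. HHR is a hairless mutant derived from SDR that lacks part of the cluster of type II keratin genes, and its heterozygous state was labelled as such. All groups are mammary gland tissue, and the labels give no drug, transgene, age or length of the preceding lactation. The labels do not say whether an array held RNA of 1 animal or of a pool. Genotype and stage differ at once in this pair, so their effects cannot be told apart from the pair alone. With 1 array a group no difference can be given a replicate error or be tested, and each is described by its size in these arrays.

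On the first day of lactation the secretory epithelium turns to making fat, lactose and milk protein under prolactin, which acts through the transcription factor Stat5, while some epithelial cells still divide. When milk removal stops, the gland enters involution. Stat3 is then activated, secretion declines, acute phase proteins and lysosomal proteases accumulate, and epithelial cells die. The death of cells and the rebuilding of matrix and fat pad that follow give the gland back its resting form.

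Signals are MAS5 values, that is, linear intensities of probe sets, scaled to a common mean in every array. Values below 91.5, the pooled 40th percentile, were raised to that floor, so a fold against the floor is a lower bound. A gene counts as measured where it exceeded the floor in 1 or both arrays of the pair, and each gene is represented by 1 probe set. Differences in log2 units are heterozygous HHR lactation minus SDR involution. For the Gapdh control, the 3′ signal over the 5′ signal, which grows as RNA degrades, was 1.93 in heterozygous HHR lactation and 1.60 in SDR involution, and that of actin was 7.86 and 4.80. The part of RNA quality in the differences was not tested. The 14 brightest probe sets had a median log2 difference of 0.38 and the spiked-in cre controls had differences of 0.50 and 0.51. The tissue label was met in both arrays by the milk protein genes Csn1s1, with 60311 against 46394, and Lalba, with 50638 against 36580.3, and by the epithelial adhesion gene Epcam, with 15022 against 31413.

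Heterozygous HHR lactation exceeded involution at least 2-fold in 1057 of 11041 measured genes (9.57%) and lay at least 2-fold below it in 1210 (11.0%), together 20.5%. With the arrays centred on their medians, which shifted the median difference of all genes from -0.06 to 0.07, the counts were 1288 and 945, so which direction was larger turned with the scaling. The median difference was -0.06, with quartiles at -0.56 and 0.43. Differences of at least 8-fold were found for 106 higher and 54 lower genes. In the other array of the pair, 149 of the higher and 165 of the lower genes were at the floor. Where a further probe set of the gene lay above the floor, all further probe sets went the same way for 255 of 284 higher and 243 of 285 lower genes. The gene lists below were read against these shares and this median.

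**Figure D1:**
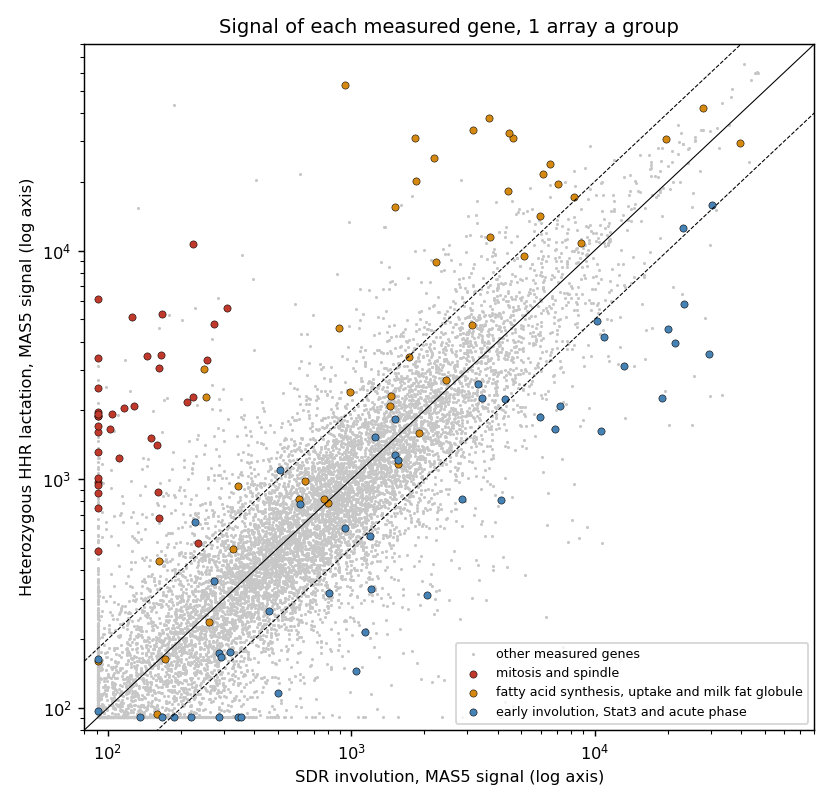
MAS5 signal of each of the 11041 measured genes in SDR involution (x axis, log scale) and heterozygous HHR lactation (y axis, log scale), with lines of equal signal (solid) and 2-fold difference (dashed). Genes of mitosis lie far above the lines, several of them at the floor of 91.5 in involution, most fat genes lie above the line of equal signal, and most genes of early involution and the acute phase lie below it.

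Genes of mitosis and the spindle had the largest differences of all lists. Of 37 measured members 37 were at least 2-fold higher in heterozygous HHR lactation, against 9.57% of all genes, with a median log2 difference of 4.13. Their differences ran from 1.17 to 6.06. In SDR involution 16 members were at the floor and in heterozygous HHR lactation 0 were. The list had 43 entries, and the others are not analysed here. The signal of a tissue does not tell fewer dividing cells apart from less RNA per cell.

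The DNA before the start of these genes is shown because the members were higher together. Genes of mitosis are known to be repressed outside division by the DREAM complex, which binds the CHR element TTTGAA, and to be driven by NF-Y, which binds CCAAT. In the 250 bases before the gene start, searched on both strands, TTTGAA was present in 16 of the 33 members with a promoter entry (48.5%) and in 9.96% of the 9186 measured genes with one. CCAAT was present in 27 of 33 (81.8%) against 35.8%, and both elements together in 16 of 33 against 3.88%. The E2F letters TTTCGCGC or TTTGGCGC were found in 1 of 33 against 1.16%. A match is a description of the letters and not a sign of binding. The 4 members with both elements and the largest differences are printed 5′ to 3′ on the gene's strand from RefSeq (build GRCr8), with both elements on either strand in capitals and the last base adjoining the gene start.
Top2a (chr10:84473094-84473343, minus strand): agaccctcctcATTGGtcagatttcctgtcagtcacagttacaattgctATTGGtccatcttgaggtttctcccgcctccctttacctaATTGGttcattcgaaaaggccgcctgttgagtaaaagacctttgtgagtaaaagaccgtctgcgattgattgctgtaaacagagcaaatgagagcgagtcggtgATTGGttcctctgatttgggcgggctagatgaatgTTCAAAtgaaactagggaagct
Mki67 (chr1:199952594-199952843, minus strand): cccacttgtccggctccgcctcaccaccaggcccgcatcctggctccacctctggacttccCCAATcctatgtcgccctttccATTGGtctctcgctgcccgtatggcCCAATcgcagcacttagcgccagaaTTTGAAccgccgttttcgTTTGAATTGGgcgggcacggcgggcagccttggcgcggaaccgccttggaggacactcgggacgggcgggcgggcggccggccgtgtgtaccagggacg
Ect2 (chr2:111966627-111966876, minus strand): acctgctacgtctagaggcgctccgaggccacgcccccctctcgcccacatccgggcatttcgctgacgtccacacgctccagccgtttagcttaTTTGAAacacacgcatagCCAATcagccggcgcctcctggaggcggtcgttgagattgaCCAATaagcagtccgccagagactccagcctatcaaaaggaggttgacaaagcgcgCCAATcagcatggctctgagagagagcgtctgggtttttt
Ccnb2 (chr8:79981659-79981908, minus strand): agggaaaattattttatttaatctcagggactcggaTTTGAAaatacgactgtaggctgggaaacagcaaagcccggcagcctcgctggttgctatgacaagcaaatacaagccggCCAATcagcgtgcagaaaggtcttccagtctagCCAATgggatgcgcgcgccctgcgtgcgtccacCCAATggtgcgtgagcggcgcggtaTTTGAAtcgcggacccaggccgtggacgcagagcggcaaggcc
In Top2a the element TTTGAA, read there on the opposite strand, lay 16 bases before the start and CCAAT occurred 4 times. In Mki67 an overlap of the elements is printed as 1 run of capitals.

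Mki67, the nuclear protein used to mark dividing cells, had signals of 10701 in heterozygous HHR lactation, 4059 in homozygous HHR lactation, 2496 in SDR lactation and 224 in SDR involution. It was 47.9-fold higher in heterozygous HHR lactation than in involution, with both other lactation arrays in between. Top2a, the topoisomerase that untangles DNA before cell division, had 6117, 2412, 1322 and the floor in the same order and was at least 66.9-fold higher. Ube2c, which loads ubiquitin for the exit from mitosis, had 5302, 1408, 1203 and 167. Cks2, a partner of the mitotic kinase, had 5629.9, 2195, 2150.0 and 308 and was 18.3-fold higher. In each of these genes the heterozygous HHR array was the highest and the involution array the lowest. Nusap1, a protein of spindle microtubules, was 40.7-fold higher and Ccna2, the cyclin of S phase and early mitosis, at least 27.3-fold higher. Ect2, which drives the cleavage furrow, was at least 36.9-fold higher, the spindle motor Kif20a at least 21.5-fold higher and the hyaluronan receptor and spindle protein Hmmr at least 21.0-fold higher. Ccnb2, a mitotic cyclin shown for its promoter, had 3470.5, 1297, 1233 and 145. The member with the smallest difference, the phosphatase Cdc25b, had 529 against 235.

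Genes of DNA replication and nucleotide supply were also mostly higher, by less. At least 2-fold higher were 26 of 37 measured members, none were lower, and the median was 1.38, and 5 were at the floor in involution. Pcna, the sliding clamp of DNA polymerase, had 10836, 5908, 5515 and 3573 in the order heterozygous HHR, homozygous HHR, SDR lactation and SDR involution. Here heterozygous HHR alone was high and the other arrays lay within a narrower range. Dut, which removes dUTP from the nucleotide pool, was 9.99-fold higher, with 5855, 2260.3, 1700.4 and 586. A further, dimmer probe set of Dut had 523 against 361. The helicase subunit Mcm7 had 2733, 1508, 1385 and 1347, so that SDR lactation and SDR involution were nearly level. Prim1, the primase, was 3.56-fold higher. The clamp loader subunits Rfc3 and Rfc5 were short of 2-fold, Rfc3 with 1446 against 921 and Rfc5 with 1606 against 1008. A further probe set of Rfc5 passed 2-fold, with 1696 against 748.

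Among 15 measured G1 cyclins and inhibitors of their kinases 7 were higher and 0 lower. Ccnd1, the cyclin that carries growth signals into the cycle, had 7259, 3359, 3249.9 and 1449 in the same order and was 5.01-fold higher. Ccne2 was at least 11.7-fold higher, but a further probe set of it had 233 against 304, so its direction is not settled. The inhibitor Cdkn2c was 5.48-fold higher and Rbl1, a relative of the retinoblastoma protein, 2.32-fold higher. The kinase Cdk4 had 1658 against 2773 and the inhibitor Cdkn1b 2983 against 2662, both short of 2-fold.

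**Figure D2:**
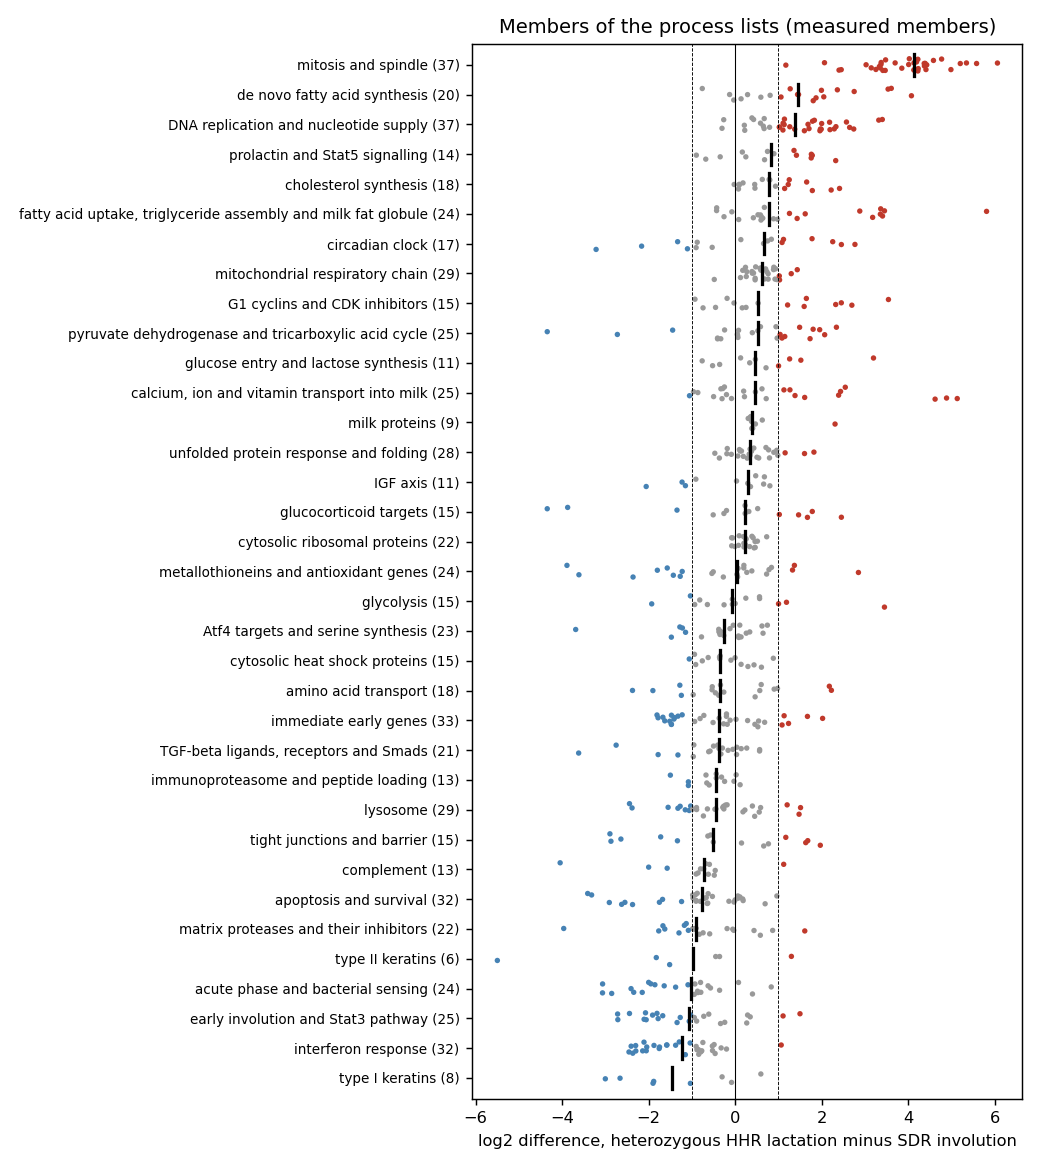
log2 difference (heterozygous HHR lactation minus SDR involution, x axis) of each measured member of the process lists, with the number of members in brackets, black bars at list medians and dashed lines at 2-fold. Mitosis genes stand farthest to the right with a median of 4.13, and type I keratins and interferon response genes farthest to the left with medians of -1.46 and -1.22.

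Genes that make fatty acids were higher in heterozygous HHR lactation. At least 2-fold higher were 13 of 20 measured members, none were lower, and the median was 1.45. Fasn, fatty acid synthase, had signals of 31008 in heterozygous HHR lactation, 27710.3 in homozygous HHR lactation, 33682 in SDR lactation and 4604 in SDR involution. The 3 lactation arrays were close to each other and involution stood apart, 6.73-fold below heterozygous HHR. Acaca, the carboxylase that makes malonyl-CoA, had 25401, 16280.5, 23834 and 2191 in the same order and was 11.6-fold higher. Fads1, the desaturase of polyunsaturated fatty acids, was 16.9-fold higher, with 30898, 29471, 32060.1 and 1833. Elovl5, which lengthens such fatty acids, was 3.65-fold higher. Thrsp, a regulator of lipogenesis, differed from this pattern with 10763, 12333, 29683 and 8819, where SDR lactation alone was high. The citrate carrier Slc25a1 had 4722 against 3127.

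In the list of fatty acid uptake, triglyceride assembly and the milk fat globule, 10 of 24 members were higher, 0 lower and the median was 0.78. Fabp3, a fatty acid binding protein, had 52813, 45740.5, 57721 and 941 and was 56.1-fold higher, with all lactation arrays bright and involution low. Lpl, which frees fatty acids from lipoproteins at the vessel wall, had 37854, 33165, 42047 and 3696. Cidea, a lipid droplet protein of milk fat secretion, was 10.6-fold higher, and Acsl1, which activates fatty acids, 7.37-fold higher. Cd36, a fatty acid translocase, had 15568, 7958, 34685 and 1511, so that the lactation arrays themselves were spread from low in homozygous HHR to high in SDR. The coat protein Xdh was short of 2-fold with 41853, 33702, 35936 and 27905, and Fabp5 was the other way with 29515 against 39723.

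Cholesterol synthesis had 7 of 18 members higher, 0 lower and a median of 0.79. Fdps, which makes farnesyl diphosphate, was 2.34-fold higher, Idi1, an isomerase of the same pathway, 2.38-fold higher, and the sterol desaturase Sc5d 5.33-fold higher. Cyp51, a demethylase of lanosterol, had 6442 against 3372 and stayed short of 2-fold.

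For glucose entry and lactose synthesis 4 of 11 members were higher and 0 lower. B4galt1, which forms the lactose synthase together with alpha-lactalbumin, had 12623, 7057, 11716 and 1376 in the order heterozygous HHR, homozygous HHR, SDR lactation and SDR involution. It was 9.18-fold higher, and homozygous HHR lay below the other lactation arrays. In 2 further, much dimmer probe sets of B4galt1 the difference was only 0.25 and 0.04 in log2 units. The glucose transporter Slc2a1 was 2.87-fold higher and Ugp2, which makes UDP-glucose, 2.01-fold higher. The glucose carrier Slc5a1 was at least 2.39-fold higher. Alpha-lactalbumin itself, Lalba, differed by 0.47 in log2 units, a size close to that of the spiked-in cre controls.

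Milk protein genes were bright in both arrays. Among 9 measured members only Muc1, a mucin of the apical surface, passed 2-fold, with 6249, 7185, 8210.0 and 1261, and the lactation arrays were alike. The other members had differences of 0.30 to 0.63 around the list median of 0.39. Csn1s1 had 60311, 51747, 59405 and 46394 and Glycam1, a milk mucin, 59679, 48576, 61700.5 and 45691, with SDR involution lowest in both. These are among the brightest signals of the arrays, whose maxima were 65647, 58306, 63449 and 47462 in the same order, also lowest in involution. Both differences were about the size of the 0.38 of the 14 brightest probe sets. The part of scaling or saturation in them was not tested. Spp1, osteopontin, was at the floor in both arrays of the pair.

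Transporters of ions and vitamins into milk included some of the largest differences. Of 25 measured members 10 were higher and 1 lower. Slc34a2, the phosphate cotransporter of the apical membrane, had 21678, 22956, 30067 and 618 and was 35.1-fold higher. Atp2b2, the pump that moves calcium into milk, had 2706, 386, 1794 and the floor in the same order and was at least 29.6-fold higher. For Atp2b2 homozygous HHR lay between the other lactation arrays and involution. Aqp3, a channel for water and glycerol, was 24.6-fold higher, and the zinc transporters Slc39a8 and Slc30a4 were 3.05-fold higher and 2.41-fold higher. Abcg2, which carries riboflavin into milk, was 5.41-fold higher. The lower member was the water channel Aqp5, with 224, 571, 508 and 466, where heterozygous HHR was the lowest array.

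Prolactin and Stat5 signalling had 6 of 14 members higher, 0 lower and a median of 0.82. Prlr, the prolactin receptor, had 11404, 12461, 12407 and 4270.5 in the order heterozygous HHR, homozygous HHR, SDR lactation and SDR involution, a level lactation group above involution. Elf5, a transcription factor of secretory cells, was 3.39-fold higher, the kinase Akt1 2.57-fold higher and the glucocorticoid receptor Nr3c1 3.44-fold higher. Id2, an inhibitor of differentiation factors, had 5096 against 3035. Caveolin 1, Cav1, known to restrain this pathway, had 6881 against 6131.

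**Figure D3:**
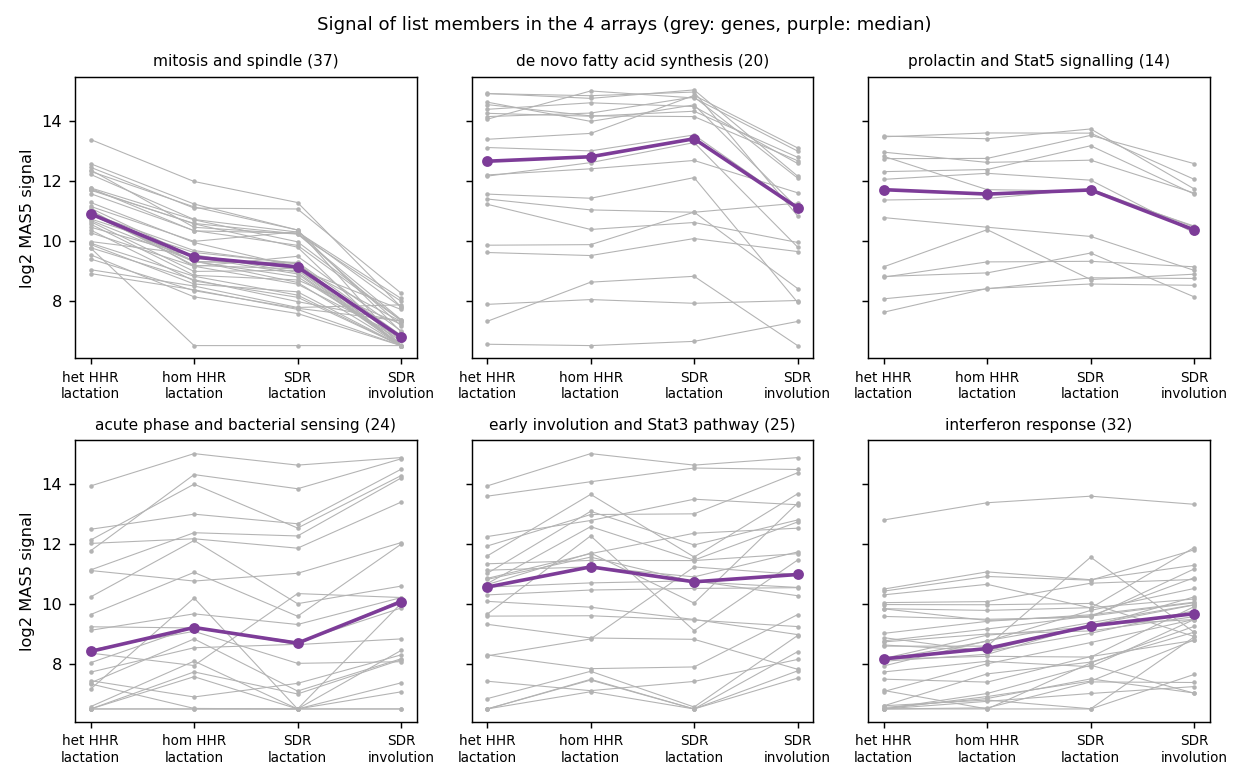
log2 MAS5 signal (y axis) of the measured members of 6 lists in the 4 arrays (x axis), with genes in grey and their median in purple. Mitosis genes step down from heterozygous HHR to involution, fat and prolactin genes are level over the lactation arrays and low in involution, and the medians of acute phase and interferon genes are highest in involution.

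Enzymes around pyruvate went both ways. In the list of pyruvate dehydrogenase and the tricarboxylic acid cycle 9 of 25 members were higher and 3 lower. The lower share was near the 11.0% of all genes, and the median was 0.53. Pdhb, a subunit of pyruvate dehydrogenase, had 10604, 5782, 8294 and 2526 and was 4.20-fold higher, citrate synthase Cs was 3.88-fold higher and the aconitase Aco1 5.07-fold higher. Pdk4, the kinase that shuts pyruvate dehydrogenase off, had 529, 3914, 457 and 10724 and was 20.3-fold lower. Both HHR arrays differed for Pdk4, with heterozygous HHR near SDR lactation and homozygous HHR nearer to involution. The kinase Pdk2 was 2.72-fold lower, with 902, 2472, 936 and 2456 in the order heterozygous HHR, homozygous HHR, SDR lactation and SDR involution, and homozygous HHR was level with involution. Idh1, the cytosolic isocitrate dehydrogenase, was 6.60-fold lower.

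Respiratory chain subunits had a median of 0.61 with 4 of 29 higher, not far above the 9.57% of all genes, and 0 lower. Cox7b, a subunit of cytochrome oxidase, had 22342 against 8255, and Ndufb5, of complex I, 9580.0 against 3899. Ndufb8, also of complex I, was 2.04-fold higher and Cox5b, of cytochrome oxidase, 2.03-fold higher. Glycolysis enzymes had 3 of 15 higher and 2 lower, the lower share being near the 11.0% of all genes. Their median of -0.06 was close to that of all genes. Aldoc, an aldolase, was 10.9-fold higher, Pfkl, a phosphofructokinase, 2.28-fold higher and Pgk1, a kinase of the pathway, 2.0-fold higher. Ldha, lactate dehydrogenase, was 2.05-fold lower and Pfkfb3, which makes an activator of phosphofructokinase, 3.81-fold lower. Pfkfb3 had 197, 628, 131 and 748, with homozygous HHR near involution. None of 22 cytosolic ribosomal proteins passed 2-fold.

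Secretory pathway genes had 3 of 28 members higher and 0 lower in the list of folding and the unfolded protein response. That higher share was near the 9.57% of all genes. Sec61a1 and Sec61b, of the translocation channel of the endoplasmic reticulum, were 3.53-fold higher and 3.04-fold higher, and the chaperone cofactor Sdf2l1 was 2.23-fold higher. The chaperone Hspa5 had 21254, 16255, 21401 and 16967. Amino acid carriers went both ways, with 2 of 18 higher, near the 9.57% of all genes, and 4 lower, against 11.0%. The glutamine carrier Slc38a3 was 4.68-fold higher and the peptide carrier Slc15a2 4.52-fold higher. Slc3a2, the heavy chain shared by several carriers, was 2.42-fold lower and the broad carrier Slc6a14 at least 5.18-fold lower. The carriers Slc1a1, for glutamate, and Slc7a8, for neutral amino acids, were 3.73-fold lower and 2.37-fold lower.

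Genes of early involution and the Stat3 pathway were lower in heterozygous HHR lactation. Of 25 measured members 14 were at least 2-fold lower, against 11.0% of all genes, and 2 were higher, near the 9.57% of all genes. The median was -1.06. Stat3 itself had 1621 in heterozygous HHR lactation, 3359 in homozygous HHR lactation, 1055 in SDR lactation and 10652 in SDR involution and was 6.57-fold lower. Heterozygous HHR lay near SDR lactation and homozygous HHR between them and involution. Ctsl, a lysosomal protease, had 3949.8, 8175, 8308 and 21459 in the same order and was 5.43-fold lower, and here heterozygous HHR was below both other lactation arrays. Sox4, a transcription factor, had 3139.6, 13031, 3062 and 13198, with homozygous HHR level with involution. The aspartic protease Ctsd was 2.09-fold lower. In the 250 bases before the start of the 21 members with a promoter entry, the letters TTCNNNGAA of a STAT site were found in 0, against 5.88% of measured genes, and TGACTCA, bound by AP-1, in 0, against 3.18%. No match says only that these letters are not in this window.

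Igfbp5, which binds insulin-like growth factors in the regressing gland, had 1656, 6181, 2855 and 6887 and was 4.16-fold lower. Tgfb3, a growth factor induced by milk stasis, had 2099, 8809, 4047 and 7209 and was 3.43-fold lower. Cebpd, a transcription factor downstream of Stat3, had 816, 4992, 559 and 2854. In Tgfb3 and Cebpd the highest array was homozygous HHR in lactation and not involution. The higher members were the interleukin receptor Il6r, with 1099.7 against 510.2, and Cebpa, a factor of differentiated epithelium and fat, with 647 against 229. Lcn2, an antibacterial lipocalin, had 15836, 33408, 25616 and 30462 and was short of 2-fold.

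Acute phase and bacterial sensing genes had 12 of 24 members lower, 0 higher and a median of -1.02. Saa3, a serum amyloid, had 3535, 20582, 14839 and 29592 in the order heterozygous HHR, homozygous HHR, SDR lactation and SDR involution and was 8.37-fold lower. For Saa3 heterozygous HHR stood below every other array, SDR lactation included. Lbp, which binds bacterial lipopolysaccharide, had 2273, 5369.6, 4982 and 18997 and was 8.36-fold lower, and Cd14, its receptor partner, had 4533, 16494, 5985 and 20076. The complement component C3 was 4.0-fold lower, with 5818, 8244, 6605 and 23251. Among 13 measured complement genes 3 were lower, against 11.0% of all genes. Only 1 was higher, a share near the 9.57% of all genes. Cfi, the protease that inactivates C3b, was 16.5-fold lower, with 138, 370.3, 1035 and 2279, and the receptor C5ar1 2.97-fold lower. The higher member Cfd, a complement protease made by adipocytes, had 5278 against 2424.

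Apoptosis and survival genes had 9 of 32 members lower, 0 higher and a median of -0.76. Gadd45a, a stress gene, had 412, 698, 822 and 4369.8 and was 10.6-fold lower. Bik, a killer of the Bcl2 family, had 178, 347, 114 and 1772 and was 9.97-fold lower, and both genes were clearly highest in involution. The inflammatory caspase Casp1 was 3.36-fold lower and the effector Casp6 2.36-fold lower. The survival factor Mcl1 had 4619.5, 13039.6, 6951 and 8474, short of 2-fold, with homozygous HHR highest.

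Matrix proteases and their inhibitors had 8 of 22 members lower and 1 higher, and 8 of the 30 on the array lay at the floor in both arrays of the pair. Timp1, an inhibitor of matrix metalloproteinases, had 552, 779, 781 and 8593 and was 15.6-fold lower, with the lactation arrays alike. Mmp14, a membrane-bound protease, was 3.09-fold lower, the sheddase Adam17 2.19-fold lower and the inhibitor Timp3 2.12-fold lower. Adamts5, a protease of proteoglycans, was the higher member at 1072 against 351. Among 29 lysosome genes 8 were lower and 3 higher, the higher share being near the 9.57% of all genes. The membrane proteins Lamp1 and Lamp2 had 4479.8, 5275, 4049.6 and 10806 and 5039, 7525, 4511 and 11200.5, each highest in involution. The proteases Ctsh and Ctsc and the glucuronidase Gusb were the higher members, at 2.30-fold higher, 2.78-fold higher and 2.85-fold higher.

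Metallothioneins and antioxidant genes had 8 of 24 members lower and 3 higher, the higher share being not far above the 9.57% of all genes. Mt2A, a metallothionein that binds zinc and copper, had 664, 1368, 358 and 8109 and was 12.2-fold lower. Sod2, the mitochondrial superoxide dismutase, was 5.13-fold lower, the glutathione transferase Gstp1 3.48-fold lower and the glutathione peroxidase Gpx2 at least 14.8-fold lower. Gsta1, another glutathione transferase, went the other way with 20393, 25536, 23629.6 and 2829. So did catalase, Cat, at 2.58-fold higher, and Gclc, of glutathione synthesis, at 2.51-fold higher. Among 23 targets of Atf4 and serine synthesis genes 5 were lower and 0 higher. Nupr1, a stress-induced nuclear protein, had 2318, 8417, 6485 and 29812 and was 12.9-fold lower, while Atf4 itself had 8364 against 5441. The pseudokinase Trib3 was 2.21-fold lower, the stress genes Sesn2 and Atf3 2.33-fold lower and at least 2.78-fold lower, and the fifth lower member was the carrier Slc3a2. Among 15 cytosolic heat shock proteins and partners 1 was lower, Dnaja1, at 2.09-fold lower, a share below the 11.0% of all genes.

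Interferon response genes were lower, with 18 of 32 measured members past 2-fold in that direction, 1 higher and the list median at -1.22. Ifit2, an antiviral protein, had 441, 580.3, 786 and 1899.8 in the order heterozygous HHR, homozygous HHR, SDR lactation and SDR involution and was 4.31-fold lower. Irf1, a transcription factor of this response, had 776, 727, 762 and 2325, so that the lactation arrays were level. Trim25, a ubiquitin ligase of RNA sensing, was 2.98-fold lower and Parp9 2.59-fold lower. The higher member was the exonuclease Isg20, with 1022 against 488. Of 13 genes of the immunoproteasome and peptide loading 3 were lower and 0 higher. The peptide transporter Tap1 was 2.82-fold lower, the proteasome activator Psme2 2.11-fold lower and the subunit Psmb10 2.11-fold lower. Beta-2-microglobulin, B2m, had 34368 against 31729.8, while a further, dimmer probe set of it went the other way with 6430 against 10119.

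RT1 genes, the major histocompatibility complex of the rat, went different ways over the arrays, and they were chosen after their values were seen. Of 18 measured RT1 genes 6 were at least 2-fold lower, against 11.0% of all genes. The 2 higher ones were RT1-Bb and RT1-CE16, a share near the 9.57% of all genes. RT1-CE5, a class I gene, had 151, 117, 16488 and 825, so that the SDR arrays differed far more from each other than heterozygous HHR did from involution. RT1-Bb, a class II gene, had 816, 777, 2731 and the floor, present in each lactation array and at the floor in involution. RT1-A was at the floor in SDR lactation and had 299.9 against 2205 in the pair. For RT1-Ba 1 of 2 further probe sets went the other way. These genes form a family of near-identical copies that a probe set may not separate, so each value is uncertain.

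Immediate early genes, the first to answer a stimulus, went both ways with 12 of 33 measured members lower and 5 higher. The antiproliferative gene Btg1 had 5844, 9993, 13060.1 and 15582, the RNA-binding protein gene Zfp36l1 5105, 11518, 7282 and 12754 and the stress gene Ier3 2013, 5015, 2858 and 6919. Each of these was lowest in heterozygous HHR and highest in involution. Myc, a growth regulator, went the other way, with 842, 2536, 371 and 207, and was 4.06-fold higher. The kinase Sgk1 was 3.19-fold higher and the phosphatase Dusp5 2.35-fold higher. The nuclear receptors Nr4a1 and Nr4a3 were 2.12-fold higher and 2.19-fold higher. Myc was highest in homozygous HHR and lowest in involution.

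Clock genes also went both ways, with 6 of 17 measured members higher and 4 lower. The repressor Cry1 had 1475, 929, 1274 and 216, the repressor Per2 1061, 509, 281 and 222 and Per1 564, 445, 215 and 103. Per1 and Per2 were highest in heterozygous HHR. Bhlhe41, another repressor of the clock, had 362, 1068, 577 and 3354 and was 9.28-fold lower, and Nr1d1, a nuclear receptor of the clock, 4.47-fold lower. Cry2 was 2.51-fold lower and the output factor Dbp 2.15-fold lower. The hour of sampling is not given in the labels, so time of day and group cannot be told apart. Targets of the glucocorticoid receptor had 5 of 15 higher and 3 lower, among them Angptl4, an inhibitor of lipoprotein lipase, with 1719, 6684, 1186 and 25142. Angptl4 was 14.6-fold lower, while its target enzyme Lpl was 10.2-fold higher. The growth inhibitor Ddit4 was 2.54-fold lower, and Pdk4 was the other lower member. Klf15, a transcription factor, was 2.03-fold higher and Hsd11b2, which inactivates the hormone, at least 2.76-fold higher. The other higher members were Per1, Sgk1 and Nr3c1.

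The list of TGF-beta ligands, their binding proteins, receptors and Smads had 4 of 21 measured members lower and 0 higher. Inhbb, a subunit of activin and inhibin, was at least 12.3-fold lower and Ltbp1, which stores latent TGF-beta in the matrix, 6.73-fold lower. Its relative Ltbp2 was 2.50-fold lower, and the ligand Tgfb3 is given above. The receptor Tgfbr1 had 2344 against 2624. In the IGF axis 3 of 11 members were lower, against 11.0% of all genes, and 0 higher. Yet 7 of the 11 members lay above 0, and the list median was 0.29. The 3 lower members were binding proteins, Igfbp5, Igfbp6 at 2.34-fold lower and Igfbp4 at 2.22-fold lower. The binding protein Igfbp2 had 4709.5 against 3387.

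Of the keratins past 2-fold, the intermediate filaments of epithelia, all but Krt5 were lower. Of 8 measured type I keratins 5 were lower and 0 higher, and of 6 measured type II keratins 3 were lower and 1 higher. Krt7, a keratin of ductal epithelium, had 102, 361, the floor and 4619.9 and was 45.1-fold lower. Krt19 had 2434, 4064, 4025 and 19472, Krt8 6469.6, 9013, 5233 and 22879.7 and Krt18 4599, 8524, 4954 and 17138, the latter pair forming the filaments of simple epithelia. Involution was the highest array for each of these keratins. Krt5, the type II keratin of basal cells, had 6633, 5448, 2564 and 2693 and was 2.46-fold higher, while its basal partner Krt14 had 667, 1175, 529.7 and 2459 and was 3.68-fold lower. Krt23, another type I keratin, was 6.32-fold lower. Krt86, a hair keratin, had the floor, 191, 93 and 125, low in every array.

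Junction genes split by member, with 4 of 15 higher and 5 lower. The claudin Cldn8 was 3.91-fold higher and cingulin, Cgn, 3.10-fold higher. Cldn10 was 3.20-fold higher and Tjp3, of the tight junction plaque, 2.25-fold higher. Cldn4, another claudin, had 866, 2478, 1644 and 6439 and was 7.43-fold lower and the adhesion protein Cdh1 was 3.30-fold lower. The adhesion receptor Cxadr was 7.31-fold lower. The catenin Ctnnb1 had 17833 against 25283.

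Markers of cell types were compared in the same way. Luminal epithelial markers had 6 of 15 lower and 3 higher, with the keratins, Cdh1 and Epcam among the lower ones and the secretory factor Elf5, the mucin Muc1 and the luminal factor Gata3, at 2.36-fold higher, among the higher ones. Their summed signal was 79892 in heterozygous HHR and 137217 in involution. Myoepithelial markers had 1 of 15 higher and 1 lower, Krt5 and Krt14, neither share above the 9.57% and 11.0% of all genes. The smooth muscle myosin Myh11 had 10580.0, 9247, 6052 and 6407. Adipocyte markers had 7 of 15 higher, 0 lower and a median of 0.93. The carbonic anhydrase Car3 was 4.02-fold higher, the hormone adiponectin, Adipoq, 3.94-fold higher and Cidec, a droplet protein, 2.95-fold higher. Adipoq had 1684, 1601, 1328 and 427, with all lactation arrays above involution. The summed adipocyte signal was 38982 in heterozygous HHR, 41426 in homozygous HHR, 52843 in SDR lactation and 16544 in involution. Its part in the differences of fat genes was not tested.

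Macrophage and neutrophil markers had 6 of 21 lower, 0 higher and a median of -0.68, with summed signals of 18132 in heterozygous HHR, 23251 in homozygous HHR, 29576 in SDR lactation and 31671 in involution. The sum was thus lowest in heterozygous HHR and nearly level between the SDR arrays. S100a8 and S100a9, which form a calcium-binding protein of neutrophils, were 11.4-fold lower and 5.06-fold lower. The pan-leukocyte phosphatase Ptprc was 3.09-fold lower. The macrophage markers C1qa and Lyz2 were short of 2-fold, with 1083, 1608, 2521 and 1961 and 5311, 7303, 10116 and 10368. How far these markers account for the lower acute phase and interferon genes was not tested. None of 14 T and natural killer cell markers passed 2-fold, and Cd8a, Cd8b, Cd2, Nkg7 and Klrd1 were at the floor in both arrays of the pair. B and plasma cell markers had 2 of 5 lower, Blnk and Jchain, at 3.38-fold lower and 2.20-fold lower, and Cd79b and Ms4a1 were at the floor in both.

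Fibroblast and matrix markers had 3 of 22 lower, not far above the 11.0% of all genes, and 1 higher. Fibronectin, Fn1, had 857, 1047, 1945 and 3896 and was 4.55-fold lower, the proteoglycan Dcn was 2.43-fold lower and elastin, Eln, 3.22-fold lower. The collagen Col3a1 had 18053 against 18525, and the surface protein Thy1 was 2.0-fold higher. Endothelial markers had 2 of 15 lower, a share also near that 11.0%, and 1 higher. The claudin Cldn5 was 6.23-fold lower, von Willebrand factor, Vwf, 2.51-fold lower, and the growth factor receptor Kdr 3.28-fold higher. Skin epidermis markers had 7 of 8 lower and 0 higher, and 3 were at the floor in heterozygous HHR. Suprabasin, Sbsn, had 249.6, 564, 224 and 6318. Loricrin, of the cornified layer, had 143, the floor, the floor and 352 and Krt1 91.7, the floor, the floor and 262. Loricrin and Krt1 were thus low in each array, though highest in involution. Krt10 had 359 against 735.5 and Cdsn the floor against 337, while Lce3b, short of 2-fold, had 416.5 against 336. The part of skin in the sample was not tested. Of 8 skeletal muscle markers 1 was higher, near the 9.57% of all genes, and 0 lower, with a median of -0.07. The higher member was titin, Ttn, at least 2.43-fold higher, with 222 against the floor. Of 3 red cell markers 1 was higher, the heme enzyme Alas2, at 2.11-fold higher. Of 8 nerve and Schwann cell markers 2 were higher, the transcription factor Sox10, at 3683 against 1272, and Prx, at 306 against 146. The other 6 were short of 2-fold. Of the 8 markers 5 lay below 0, and the list median was -0.45.

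**Figure D4:**
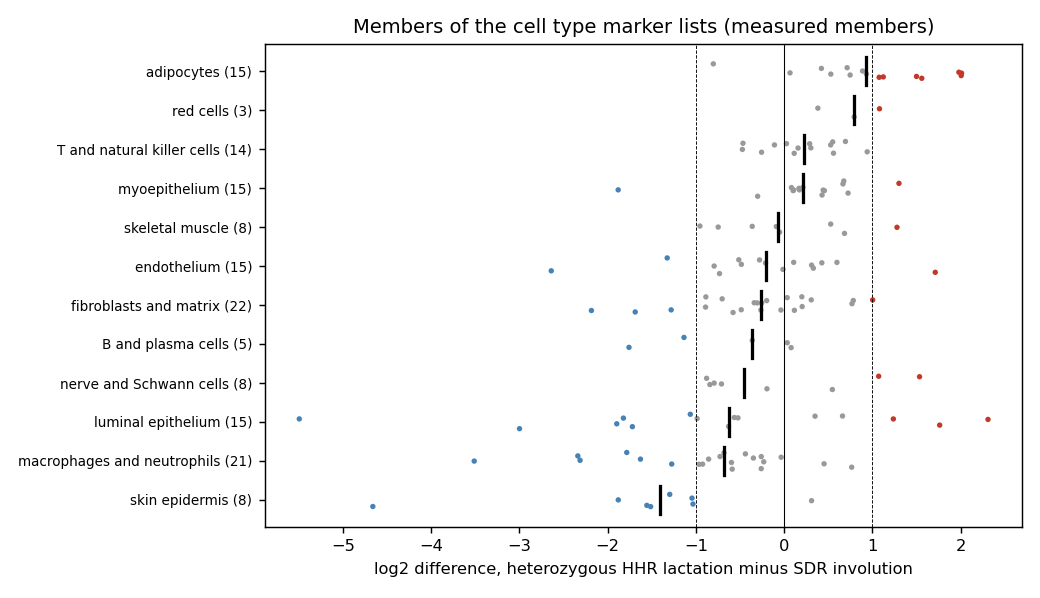
log2 difference (heterozygous HHR lactation minus SDR involution, x axis) of each measured member of the cell type marker lists, with the number of members in brackets, black bars at list medians and dashed lines at 2-fold. Adipocyte markers lie to the right with a median of 0.93, and macrophage and neutrophil, luminal and skin markers to the left.

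For the largest single genes, placeholder symbols (such as LOC numbers) and genes with a further probe set going the other way were left out. Among the remaining genes that exceeded the floor on both sides, Prr27 differed most. Prr27, a proline-rich protein gene, had 43187 in heterozygous HHR lactation, 29696 in homozygous HHR lactation, 28013 in SDR lactation and 187 in SDR involution. It was 230.5-fold higher. Fam111a, a protease that acts at replication forks, had 15339, 10912, 658 and 133 in the same order and was 115-fold higher. Both HHR arrays were high for Fam111a and both SDR arrays low, whereas Prr27 was high in each lactation array. G0s2, an inhibitor of triglyceride breakdown, had 20287, 7546, 11510.5 and 407 and was 49.8-fold higher. Aass, an enzyme of lysine breakdown, was 29.4-fold higher, the matricellular protein Ccn3 26.7-fold higher and the peptide hormone apelin, Apln, 24.6-fold higher. Gdap1, of the mitochondrial outer membrane, had 3309.7, 752, 454 and 117, several times higher in heterozygous HHR than in any other array. Pclaf, a partner of Pcna, and Cdkn3, a phosphatase of the cell cycle, were 28.3-fold higher and 25.5-fold higher. At the floor in involution were C2cd4b, at least 34.2-fold higher, and Spc24, a kinetochore protein, at least 23.5-fold higher.

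Among the same genes, the largest difference in the other direction was that of Card14, a scaffold of NF-kappaB signalling in keratinocytes. Card14 had 164, 1101, the floor and 12657 and was 77.0-fold lower. Sdcbp2, a syntenin, was 40.5-fold lower and the tetraspanin Tspan1 40.2-fold lower. The annexin Anxa1, which dampens inflammation, had 2345, 12820.5, 2335 and 33255 and was 14.2-fold lower. Dmkn, dermokine of stratified epithelia, was 15-fold lower, with 620.0, 1418, 330.3 and 9293. In Card14, Anxa1 and Dmkn homozygous HHR lay between the other lactation arrays and involution. Sphk1, which makes sphingosine 1-phosphate, was 18.2-fold lower, the ubiquitin-like modifier Ubd 14.6-fold lower, the monooxygenase Fmo5 14.4-fold lower and C3h15orf48 16.7-fold lower. At the floor in heterozygous HHR were Sdr16c5, a retinol dehydrogenase, at least 45.6-fold lower, the cadherin Cdhr1, at least 44.8-fold lower, and Vtcn1, an inhibitory ligand of T cells, at least 31.0-fold lower. Reg3b, an antibacterial lectin, had the floor, the floor, the floor and 1558, above the floor in involution alone. The same held for Gpr15lg, at least 25.9-fold lower. Gdpd1, a lipid phosphodiesterase, was at least 12.5-fold lower.

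**Figure D5:**
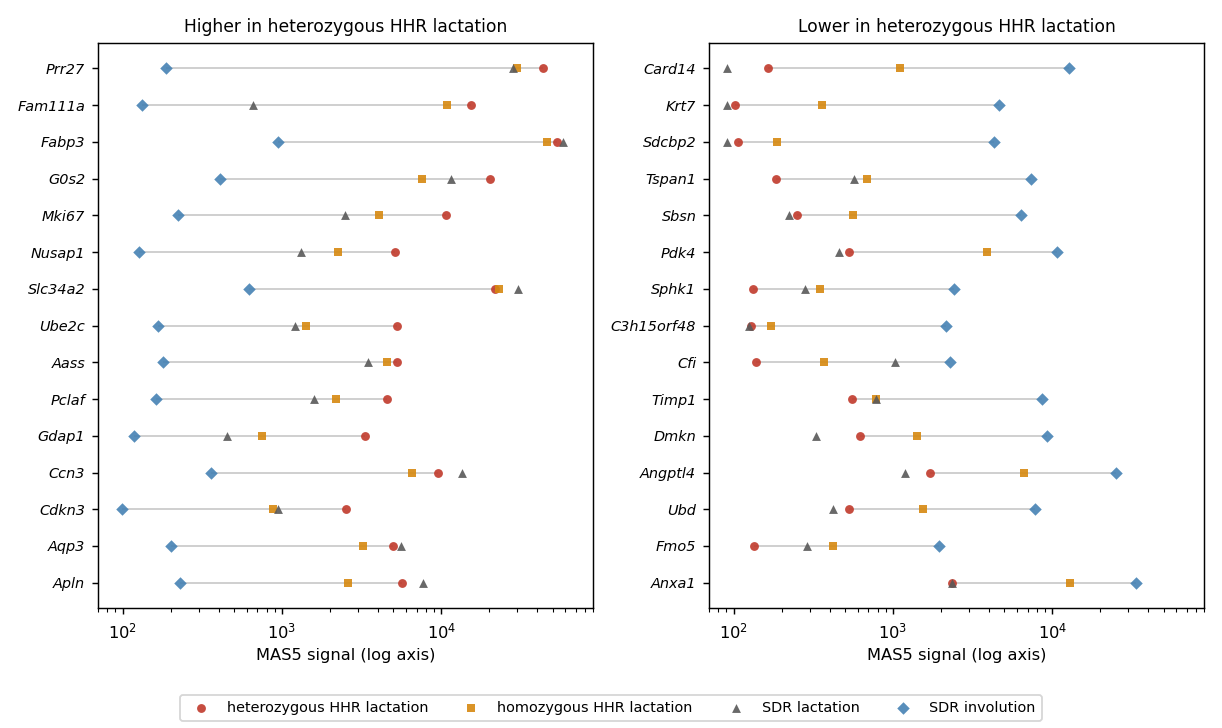
MAS5 signal (x axis, log scale) in the 4 arrays of the 15 genes with the largest differences in each direction among genes above the floor in both arrays of the pair, with grey lines joining heterozygous HHR lactation and SDR involution. Placeholder symbols and genes with a further probe set going the other way were left out. Fam111a is high in both HHR arrays only, Prr27 and Fabp3 in all lactation arrays, and Card14, Pdk4 and Anxa1 have homozygous HHR between the pair.

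Of the arrays outside the pair, SDR lactation shares the stage of heterozygous HHR and the strain label of involution. Homozygous HHR lactation shares the stage of heterozygous HHR and the genotype of neither. The SDR arrays also differed from each other in RT1 genes, as given above. The SDR lactation signal was nearer to heterozygous HHR than to involution on the log2 scale for 726 of the 1057 higher genes (68.7%) and 927 of the 1210 lower genes (76.6%), beside 60.7% of all measured genes with a difference. The homozygous HHR signal was nearer to heterozygous HHR for 786 higher (74.4%) and 809 lower genes (66.9%), beside 60.6%. Median log2 differences from SDR involution, which share that array, were as follows. Mitosis and spindle genes had 4.13 for heterozygous HHR lactation, 2.63 for homozygous HHR lactation and 2.43 for SDR lactation. DNA replication genes had 1.38 for heterozygous HHR lactation, 0.43 for homozygous HHR lactation and 0.20 for SDR lactation, so that heterozygous HHR stood apart from the other lactation arrays. Fatty acid synthesis genes had 1.45 for heterozygous HHR lactation, 1.69 for homozygous HHR lactation and 1.83 for SDR lactation, with no large gap among them. Early involution and Stat3 pathway genes had -1.06 for heterozygous HHR lactation, -0.31 for homozygous HHR lactation and -0.73 for SDR lactation. Interferon response genes had -1.22 for heterozygous HHR lactation, -1.17 for homozygous HHR lactation and -0.63 for SDR lactation. Lysosome genes had -0.44 for heterozygous HHR lactation, 0.07 for homozygous HHR lactation and 0.18 for SDR lactation, so that only heterozygous HHR had a median below that of all genes.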

How the data were processed

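Mammary gland RNA of 4 groups had been hybridised to Affymetrix rat arrays, 1 array for each group. The authors deposited MAS5 signals, which are linear intensity values of probe sets, with MAS5 named per the submitters' processing notes. Its parameters and detection calls are not stated in the sources used here. The scaling was read from the values, since a mean trimmed by 2% at each end came to 500.2 in each array. Of 31099 probe sets 57 were controls, 20826 had 1 gene symbol in the platform annotation, 436 several and 9780 none. A gene was represented by the probe set with 1 symbol that had the highest mean over the 4 arrays, which gave 14217 genes. Values below the pooled 40th percentile (91.5) were raised to it and log2 differences were taken. Genes were named as the 15 largest differences in each direction, the 8 brightest at the floor in the other array, and up to 4 members past 2-fold in each direction and 2 short of it in each list. The 15 were above the floor in both arrays, with any further probe sets above the floor going the same way. Placeholder symbols were left out of the 15 and the 8. Ccnb2, Cdc25b, Cd36, Nr4a3, Hsd11b2 and the RT1 genes were chosen after their values were seen. The comparison and the gene lists were chosen with earlier results of these data known, so nothing is supported by their choice. Promoters and gene names came from RefSeq tables of the build GRCr8. Alternatives were the scaling, the floor, a pseudocount, the probe set per gene and the fold. The scripts (Python 3.11.15, pandas 2.3.3, numpy 2.4.6) were tested on simulated data. The number of arrays limits the precision.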

Additional observations from a re-analysis of the deposited data

How the results depend on the processing

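No paired analysis was possible because each group has 1 array and no comparison has replicates. With a 3-fold threshold 432 genes were higher and 414 lower. Over the other alternatives (median centring, quantile normalization, the 25th or 55th percentile as the floor, a pseudocount in place of the floor, averaged probe sets, and no probe sets with shared-probe suffixes) the counts ran from 855 to 1308 higher and from 884 to 1526 lower. The median of the IGF axis went from 0.29 to -0.021 without shared-probe suffixes, and that of nerve and Schwann cell markers from -0.45 to 0.15 with the floor at the 55th percentile. The cause was not tested. Of 239 named genes 0 of those past 2-fold turned direction, and 52 dropped below 2-fold under at least 1 alternative, 25 of them with the pseudocount. Changes of sign in named genes short of 2-fold were not counted. Short of 2-fold with averaged probe sets were Akt1, Cdh1, Cebpa, Cry2, Cs, Kdr, Klf15, Lamp1, Nr4a3, Pfkfb3, Pgk1, Ptprc, Sec61a1, Sesn2, Slc1a1, Slc30a4, Tap1, Thy1 and Trib3. Short of it with median centring were Adam17, Aqp5, Ctsd, Dbp, Dnaja1, Epcam, Ldha, Psmb10, Psme2 and Timp3. With quantile normalization these were Aqp5, Cox5b, Pgk1 and Ugp2, and without shared-probe suffixes Cebpa, Mmp14 and Trib3. With the 55th percentile floor they were Alas2, Atf3, C5ar1, Cldn10, Hsd11b2, Krt1, Loricrin, Ltbp2, Nr4a3, Prx, Slc1a1, Slc5a1 and Ttn. With the pseudocount they were Alas2, Aqp5, Cdc25b, Cox5b, Dbp, Igfbp4, Il6r, Isg20, Klf15, Krt1, Loricrin, Ltbp2 and Mcm7. The pseudocount also left short Ndufb8, Nr4a1, Nr4a3, Pgk1, Prx, Psmb10, Slc5a1, Slc7a8, Thy1, Tjp3, Trib3 and Ugp2. Arrays have no read depth, and low signals are bounded by the floor.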
